A study of Arundinella anomala and Arundinella fluviatilis and Arundinella hirta with 8 samples.

Results

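PEP carboxylase is encoded by a small gene family, and the 4 family members examined here, together with the gene for PEP carboxylase kinase, made up 5 of 26274 genes in leaf transcriptomes of 8 C4 grasses. The genes were chosen by their maize gene models: the C4 form of PEP carboxylase (GRMZM2G083841), the other 3 PEP carboxylase genes GRMZM2G074122, GRMZM2G069542 and GRMZM2G473001, and the kinase GRMZM2G178074. Their enzyme names come from general knowledge of maize and are not given in the files. They were found in 7 of 36698 rows of the table, 5 for the carboxylases and 2 for the kinase, each row standing for 1 maize protein model. The deposited cross-reference of identifiers lists 8 protein models for the 5 genes, and the model GRMZM2G074122_P01 has no value analysed here.

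PEP carboxylase joins bicarbonate to phosphoenolpyruvate (PEP) and forms oxaloacetate. In leaves of C4 plants a highly abundant form in the mesophyll makes the first carbon fixation, and the bundle sheath releases the fixed carbon again for use by Rubisco. Other forms of the enzyme occur in most plant cells, where they replenish the organic acids of the citric acid cycle. Malate inhibits the enzyme, and PEP carboxylase kinase phosphorylates it near its N-terminus and makes it less sensitive to malate. In C4 leaves the kinase is known to be most active in the light, and it is controlled largely through the level of its own transcript. *Arundinella* is a genus known for strands of bundle sheath-like cells, called distinctive cells, that lie apart from the veins.

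Whole mature leaves of wild-type plants were sequenced, the third leaf per the labels, from plants in a growth room with a long photoperiod. The hour of sampling is not stated in the labels used here. There were 5 *Arundinella* species (*A. pubescens*, *A. nepalensis*, *A. hirta*, *A. fluviatilis* and *A. anomala*) and 3 species of other genera (*Imperata cylindrica*, *Capillipedium parviflorum* and *Bothriochloa ischaemum*), with 1 library each; how many plants a library holds is not stated in the labels. Levels are FPKM as deposited, fragments scaled by sequence length and library size, so both are allowed for when genes are compared within a library. How well the fragments of each species matched each maize model is not given. Shares, ranks and ratios between genes carry that limit. All libraries were reported on maize protein models, and "listed at 0" means only that the table holds 0 for a gene.

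The libraries differed in how much of the table they filled, and this touches each result below. *A. anomala*, *A. fluviatilis*, *A. nepalensis* and *A. pubescens* listed 68.6% to 78.4% of genes above 0 and summed to between 701722 and 829005 FPKM. *A. hirta*, by contrast, listed 40.7% of genes above 0 and summed to 319415 FPKM. The 3 other genera listed 31.0% to 38.8% and summed to between 212357 and 349576 FPKM. Genes above 0 numbered from 8142 in *C. parviflorum* to 20607 in *A. pubescens*, so the same rank is a lower place in a shorter list. Read counts are not given, so sequencing depth is unknown and no counting interval can be stated. As a check of the leaf label, the Rubisco small subunit gene GRMZM2G113033 was between 1380 and 11028 FPKM in 7 libraries and at 35.8 FPKM in *I. cylindrica*. With 1 library per species there is no spread within a species, so neighbouring species in any order of levels below cannot be told apart by a test.

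The C4 form was among the most abundant transcripts of 4 leaves, at a low level in 1 and listed at 0 in 3. Within *Arundinella*, *A. fluviatilis* held 24807 FPKM of GRMZM2G083841, *A. pubescens* 7380, *A. anomala* 2285, *A. nepalensis* 10.02 and *A. hirta* 0. In the other genera *I. cylindrica* held 11746 FPKM, and both *C. parviflorum* and *B. ischaemum* listed the gene at 0. It ranked first of all genes in *A. fluviatilis* and in *I. cylindrica*. Its rank was 7 in *A. pubescens* and 21 in *A. anomala*, but 10267 in *A. nepalensis*, where 43.0% of the genes above 0 were no higher. High and low libraries occurred in both groups. In whole leaves, fewer mesophyll cells and less transcript per cell cannot be told apart. Of the 3 libraries that listed it at 0, *A. hirta* had 59.3% of all genes at 0, *B. ischaemum* 63.2% and *C. parviflorum* 69.0%. *I. cylindrica*, with the gene at the first rank, had 61.2% of all genes at 0. The part that the extent of listing plays in the zeros of the C4 form was not tested.

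**Figure D1:**
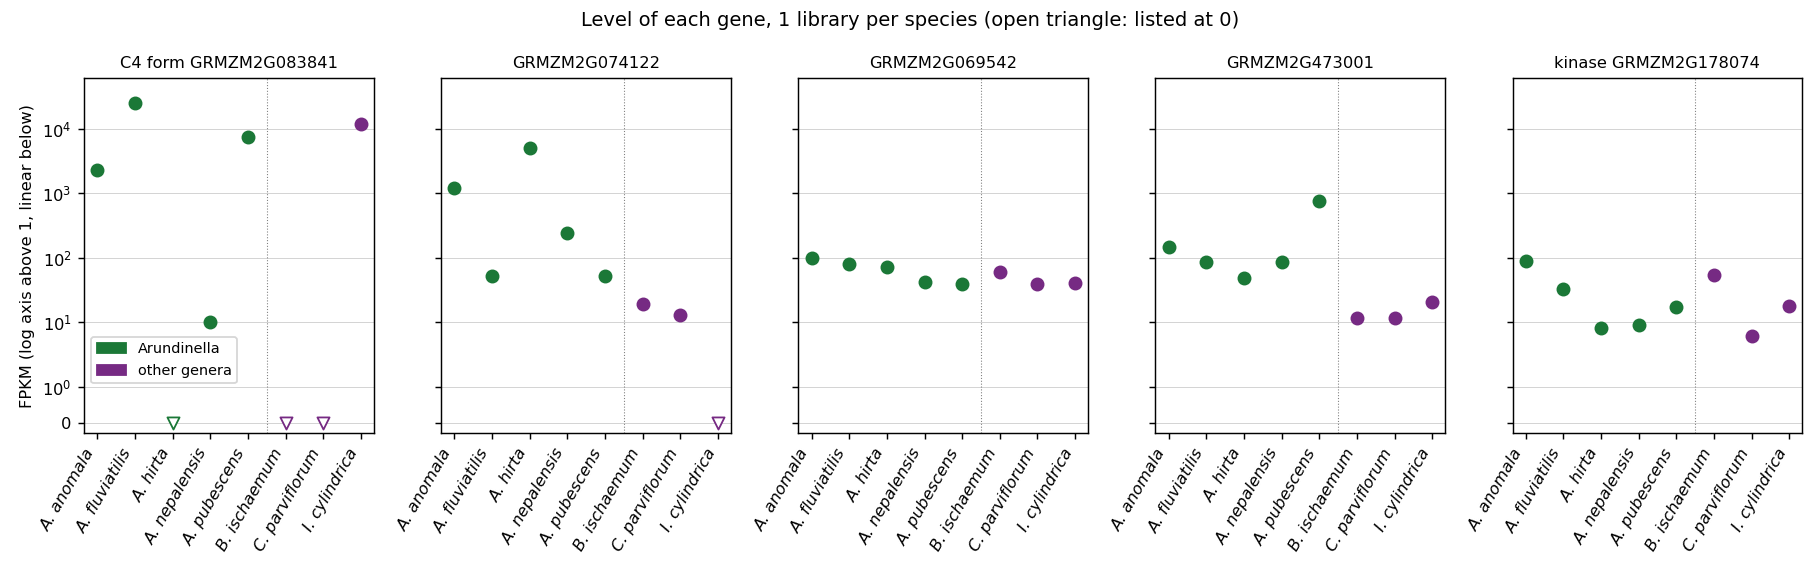
FPKM of the 4 PEP carboxylase genes and the kinase in each of the 8 libraries, on an axis that is logarithmic above 1; *Arundinella* libraries are green and other genera purple, 1 point per library, and open triangles mark a listing at 0. The C4 form spans 0 to 24807 FPKM, whereas GRMZM2G069542 stays between 38.55 and 98.0 FPKM.

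GRMZM2G074122 was the family member that led where the C4 form did not in *Arundinella*. *A. hirta* held 4927 FPKM of it, *A. anomala* 1181, *A. nepalensis* 240, *A. fluviatilis* 52.7 and *A. pubescens* 51.9. The other genera had 19.1 FPKM in *B. ischaemum*, 12.85 in *C. parviflorum* and 0 in *I. cylindrica*. All 5 *Arundinella* libraries thus lay above all 3 of the others, where 12.9% of all genes tested did not overlap in either direction. In *A. hirta* the gene ranked at 4 among all genes, and in *A. anomala* at 48. It ranked at 333 in *A. nepalensis* and between 1890 and 2738 in the 4 remaining libraries above 0. In *A. anomala* it and the C4 form were both abundant, the C4 form 1.93 times as high. All its values rest on the single row GRMZM2G074122_P02. When each library was rescaled to the same total of 1000000, the groups overlapped, because *A. fluviatilis* (64.8 rescaled units) and *A. pubescens* (62.6) then stood below *B. ischaemum* (66.97).

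GRMZM2G069542 was listed in every leaf at a moderate and similar level. Among *Arundinella*, *A. anomala* held 98.0 FPKM, *A. fluviatilis* 79.2 and *A. hirta* 72.5, while *A. nepalensis* held 41.4 and *A. pubescens* 39.3. In the other genera it stood at 59.3 FPKM in *B. ischaemum*, 40.7 in *I. cylindrica* and 38.55 in *C. parviflorum*. The groups overlapped, and the highest library exceeded the lowest by 2.54 times. *A. hirta*, *B. ischaemum* and *C. parviflorum*, which list the C4 form at 0, stood at places 3, 4 and 8 in this order. Rescaled to equal totals the range widened to 4.78 times, and *A. hirta* (227 rescaled units) stood highest and *A. pubescens* (47.5) lowest.

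GRMZM2G473001 was above 0 in all 8 libraries with 1 library well above the rest. It stood at 765 FPKM in *A. pubescens*, 148 in *A. anomala*, 85.9 in *A. nepalensis*, 84.75 in *A. fluviatilis* and 49.15 in *A. hirta*. The other genera had 20.4 FPKM in *I. cylindrica*, 11.7 in *B. ischaemum* and 11.55 in *C. parviflorum*. The 5 *Arundinella* libraries all lay above the other 3, where 12.9% of all genes tested did not overlap in either direction. The groups stayed apart after rescaling too, at 104 to 923 rescaled units in *Arundinella* and 41.3 to 58.2 in the other genera. The share of all genes without overlap after rescaling was not computed. Rescaling did not level the groups, since 80.3% of the genes tested on that scale were still fitted higher in *Arundinella*. The gene ranked at 106 in *A. pubescens* and between 810 and 2692 elsewhere.

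The high level in *A. pubescens* came from 1 of the 2 protein model rows of GRMZM2G473001. GRMZM2G473001_P02 was at 710 FPKM there and GRMZM2G473001_P01 at 55.2, so the P02 row carried 92.8% of the gene. In *A. anomala*, *A. fluviatilis* and *A. hirta* both rows were nearly equal, and P01 held 50.4%, 48.1% and 52.8% of the gene. P02 was listed at 0 in *A. nepalensis* and *I. cylindrica*, where P01 stood at 85.9 and 20.4 FPKM. In *B. ischaemum* P02 led at 10.03 against 1.71 FPKM for P01, and in *C. parviflorum* it led at 7.24 against 4.31. Excluding P02, the gene in *A. pubescens* lay within the 25.9 to 85.9 FPKM that P01 spanned in the other 4 *Arundinella* libraries. The submitters' notes name RSEM, a program that divides fragments between similar sequences by estimate, so the split between rows of 1 gene is less certain than their sum.

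**Figure D2:**
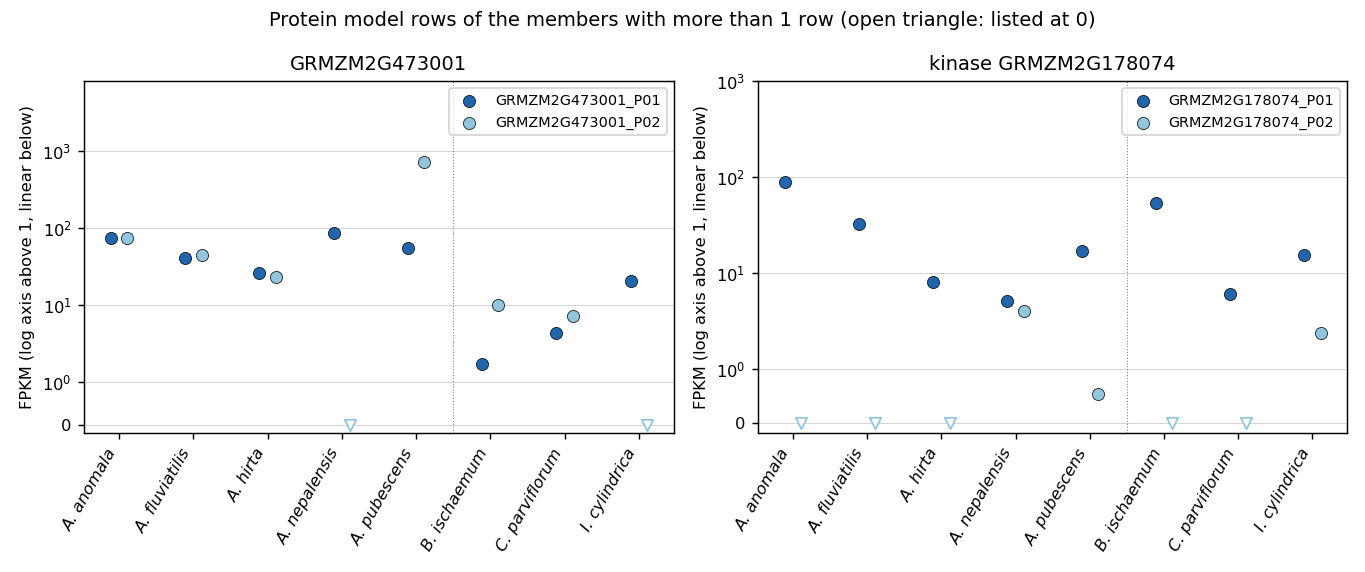
FPKM of each protein model row of GRMZM2G473001 and of the kinase GRMZM2G178074 in the 8 libraries, on an axis that is logarithmic above 1, with *Arundinella* left of the dotted line; open triangles mark a listing at 0. The P02 row of GRMZM2G473001 reaches 710 FPKM in *A. pubescens*, and the P02 row of the kinase is above 0 in 3 libraries.

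Summed over the 4 genes, PEP carboxylase transcript exceeded 3000 FPKM in 5 libraries and reached at most 378 FPKM in 3. Among the *Arundinella* species *A. fluviatilis* had a family sum of 25024 FPKM, *A. pubescens* 8237, *A. hirta* 5048, *A. anomala* 3713 and *A. nepalensis* 378. Among the other genera it was 11807 FPKM in *I. cylindrica*, 90.1 in *B. ischaemum* and 62.95 in *C. parviflorum*. *A. hirta* listed the C4 form at 0 and yet had a larger family sum than *A. anomala*, through GRMZM2G074122. The family took 3.08% of all FPKM in *A. fluviatilis*, 1.58% in *A. hirta*, 0.994% in *A. pubescens*, 0.463% in *A. anomala* and 0.0538% in *A. nepalensis*. In the other genera its part was 3.38% in *I. cylindrica*, 0.0317% in *B. ischaemum* and 0.0296% in *C. parviflorum*.

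Different members dominated the family in different leaves. The C4 form led in 4 libraries, taking 99.1% of the family sum for *A. fluviatilis*, 89.6% for *A. pubescens*, 61.6% for *A. anomala* and 99.5% for *I. cylindrica*. GRMZM2G074122 led in 2, with 97.6% in *A. hirta* and 63.6% in *A. nepalensis*. GRMZM2G069542 led in the remaining 2, with 65.8% in *B. ischaemum* and 61.2% in *C. parviflorum*. GRMZM2G473001 led in none and reached its highest shares in *A. nepalensis* (22.7%), *C. parviflorum* (18.3%) and *B. ischaemum* (13.03%). Even in *A. pubescens*, where its FPKM was highest, it made up 9.29% of the family. The distance from the leading member to the next was 293 times in *A. fluviatilis* and 289 times in *I. cylindrica*. It was 68.0 times in *A. hirta* and 9.64 times in *A. pubescens*, and between 1.93 and 3.11 times in the other 4 libraries. RSEM can move fragments between similar genes as well as between models, so shares within a family depend on that division.

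**Figure D3:**
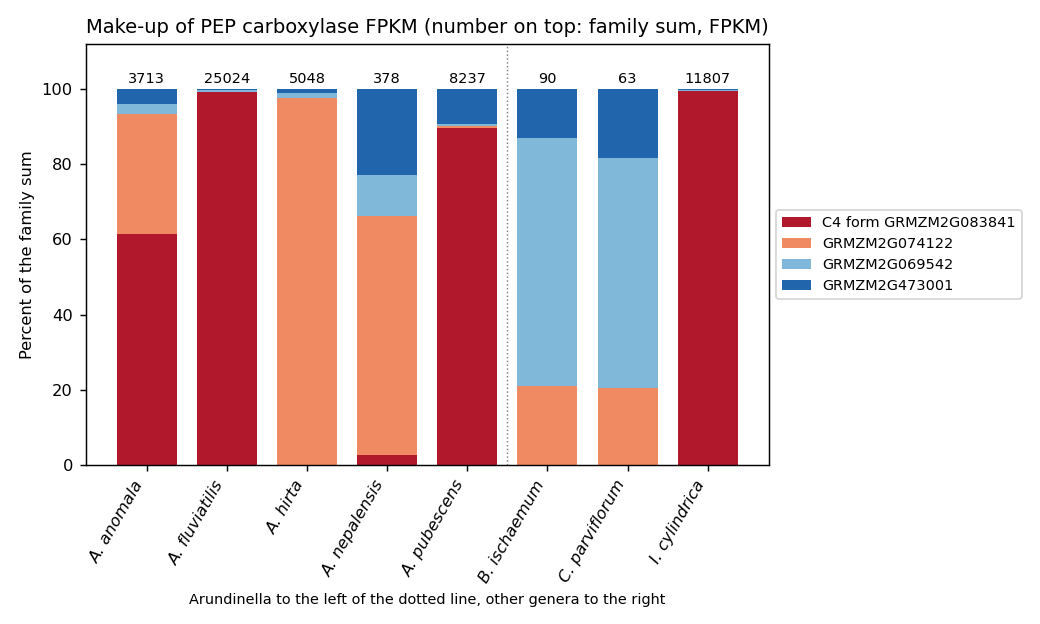
Percent of the family sum of FPKM taken by each of the 4 PEP carboxylase genes in each library, as stacked bars from 0 to 100, with the family sum in FPKM above each bar and *Arundinella* left of the dotted line. The C4 form fills 61.6% to 99.5% of 4 bars, GRMZM2G074122 leads in *A. hirta* and *A. nepalensis*, and GRMZM2G069542 leads in *B. ischaemum* and *C. parviflorum*.

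Without the C4 form, the sum of the other 3 members was 5048 FPKM in *A. hirta*, 1427 in *A. anomala*, 857 in *A. pubescens*, 368 in *A. nepalensis* and 217 in *A. fluviatilis*. It was 90.1 FPKM in *B. ischaemum*, 62.95 in *C. parviflorum* and 61.0 in *I. cylindrica*. The groups did not overlap on this scale. After rescaling to equal totals they did, since *A. fluviatilis* (266 rescaled units) fell below *B. ischaemum* (317) and *C. parviflorum* (296). The lowest sums of the non-C4 members in each group belonged to *A. fluviatilis* and *I. cylindrica*, the libraries with the highest C4 form.

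Ratios to GRMZM2G069542 in the same library do not depend on how a library was scaled. The ratio of the C4 form was 313 for *A. fluviatilis*, 188 for *A. pubescens*, 23.3 for *A. anomala* and 0.242 for *A. nepalensis*. It was 289 for *I. cylindrica*. GRMZM2G074122 was 68.0 times GRMZM2G069542 in *A. hirta*, 12.1 times in *A. anomala* and 5.80 times in *A. nepalensis*, and near it in *A. pubescens* (1.32) and *A. fluviatilis* (0.666). In the other genera the same ratio was 0.321 in *B. ischaemum*, 0.333 in *C. parviflorum* and 0 in *I. cylindrica*. GRMZM2G473001 ran from 0.678 in *A. hirta* to 19.5 in *A. pubescens* within *Arundinella*, and from 0.198 to 0.50 in the other genera. For both GRMZM2G074122 and GRMZM2G473001 the *Arundinella* ratios lay above those of the other genera without overlap, as 9.77% of all genes tested did not overlap in their ratios to GRMZM2G069542. These ratios share their denominator, so they are not independent of each other.

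**Figure D4:**
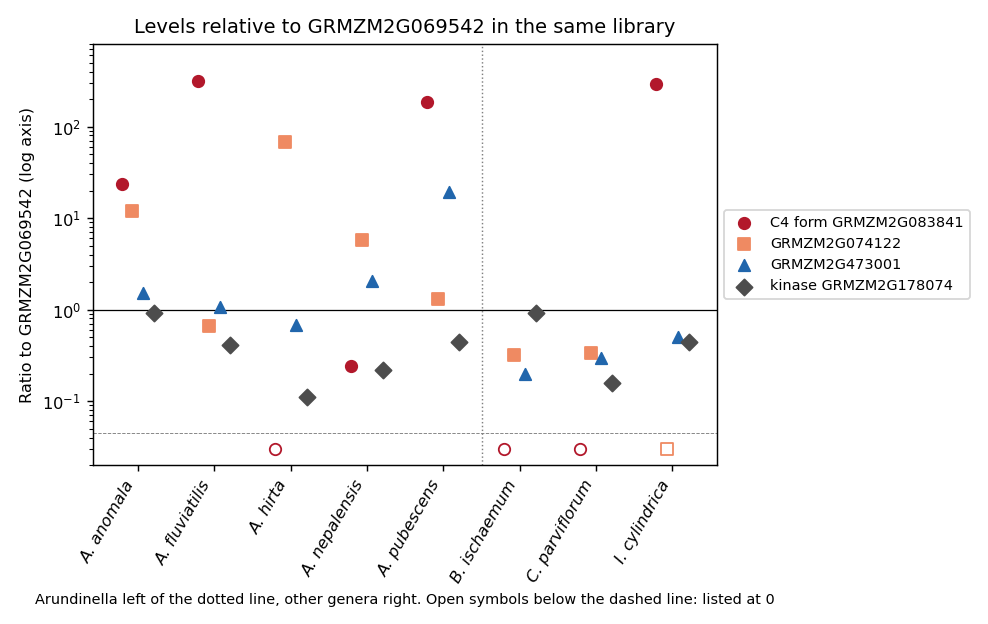
Ratio of the C4 form, GRMZM2G074122, GRMZM2G473001 and the kinase to GRMZM2G069542 in the same library, on a logarithmic axis with *Arundinella* left of the dotted line; open symbols below the dashed line mark a listing at 0. The C4 form ranges from 0.242 to 313 where it is above 0, while the kinase stays between 0.112 and 0.916.

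The kinase was above 0 in all leaves, at 6.03 to 89.7 FPKM, and its order over the leaves was not that of the carboxylase sum. *A. anomala* held 89.7 FPKM of GRMZM2G178074, *A. fluviatilis* 32.3, *A. pubescens* 17.4, *A. nepalensis* 9.12 and *A. hirta* 8.12. In the other genera it stood at 54.0 FPKM in *B. ischaemum*, 17.9 in *I. cylindrica* and 6.03 in *C. parviflorum*. The groups overlapped throughout, and *B. ischaemum* had the second highest level although the family sum there was 90.1 FPKM. For each 100 FPKM of the carboxylase family there were 2.42 FPKM of kinase in *A. anomala*, 2.41 in *A. nepalensis*, 0.211 in *A. pubescens*, 0.161 in *A. hirta* and 0.129 in *A. fluviatilis*. In the other genera there were 59.9 in *B. ischaemum*, 9.58 in *C. parviflorum* and 0.151 in *I. cylindrica*. These ratios follow the family sum, which varied 398 times, more than the kinase, which varied 14.9 times.

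Nearly all kinase values came from the first protein model. GRMZM2G178074_P01 held the whole gene in 5 libraries, 96.9% in *A. pubescens*, 86.6% in *I. cylindrica* and 56.0% in *A. nepalensis*. GRMZM2G178074_P02 was at 4.01 FPKM in *A. nepalensis*, 0.530 in *A. pubescens* and 2.40 in *I. cylindrica*. Within *Arundinella* the rank of the kinase gene among all genes ran from 1504 in *A. anomala* to 10607 in *A. nepalensis*. In the other genera it ran from 728 in *B. ischaemum* to 3029 in *C. parviflorum*, in shorter lists of genes above 0. Of the genes above 0, 92.7% were no higher in *A. anomala* and 41.2% in *A. nepalensis*. The shares were 92.5% in *B. ischaemum* and 62.8% in *C. parviflorum*.

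The labels allow a grouping by genus, and the 5 *Arundinella* libraries were set against the 3 of other genera on log2(FPKM + 1), a scale that understates changes in low genes. All 5 genes passed the filter of at least 1 FPKM in at least 3 libraries. None of the 5 passed over all genes tested (limma, Benjamini-Hochberg adjusted p under 0.05), against 1.83% of all 18780 genes. At an unadjusted p under 0.05 there were 2, GRMZM2G074122 and GRMZM2G473001, against 29.1% of all genes. The same 2 had values that did not overlap between the groups, against 12.9% of all genes. All 5 were fitted higher in *Arundinella*, as were 91.4% of all genes, with 1.74 log2 units for the median gene.

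GRMZM2G074122 averaged 8.37 in *Arundinella* and 2.71 in the other genera on the log2 scale, a difference of 5.67 ± 1.746 (SE, limma adjusted p = 0.0938), higher in 5 of 5 *Arundinella* libraries than in any other. GRMZM2G473001 averaged 7.06 in *Arundinella* and 3.91 in the other genera, a difference of 3.15 ± 1.31 (SE, limma adjusted p = 0.140). These differences lay 3.93 and 1.41 log2 units above that of the median gene. Such distances depend on the constant added before the log, the pseudocount. The median gene was at 3.15 with a pseudocount of 0.1 and 0.61 with 10. With 0.1, GRMZM2G473001 was at 3.23 and GRMZM2G074122 at 6.82. The median gene was at 1.42 after rescaling to equal totals and at −0.16 under quantile normalization. For GRMZM2G473001 the difference was 1.97 after rescaling to equal totals and 1.495 under quantile normalization, with unadjusted limma p-values of 0.163 and 0.300. With *A. hirta* left out both genes passed, at adjusted p = 0.0467 for GRMZM2G074122 and 0.0450 for GRMZM2G473001 (limma), but so did 31.1% of all genes. For the C4 form the difference was 3.91 ± 3.49 (SE, limma adjusted p = 0.407), from 8.41 in *Arundinella* and 4.51 in the other genera, with a 95% interval of −3.59 to 11.4. It was 8.41 without *I. cylindrica* and 1.65 without either *B. ischaemum* or *C. parviflorum*, so single libraries decided its size.

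GRMZM2G069542 averaged 5.98 in *Arundinella* and 5.53 in the other genera, a difference of 0.45 ± 1.18 (SE, limma adjusted p = 0.783). The SE rests largely on other genes, through limma, since the SD of this gene over all libraries is 0.52. Its 95% interval of −2.09 to 2.98 does not exclude a difference of several fold in either direction. The kinase averaged 4.46 in *Arundinella* and 4.28 in the other genera, a difference of 0.18 ± 1.27 (SE, limma adjusted p = 0.918), with a 95% interval of −2.55 to 2.91. Relative to the median gene, which itself moves with the pseudocount, these differences were −1.30 and −1.56 log2 units. Both differences turned negative when libraries were rescaled to equal totals, at −0.79 for GRMZM2G069542 and −1.02 for the kinase, and under quantile normalization, at −1.18 and −1.73. The species is the replicate in these tests, so the p-values reflect only how these libraries differ among themselves, and species of 1 genus share ancestry.

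The family held the most variable of all genes tested, and a member that varied little on the deposited scale. The SD of log2(FPKM + 1) over the 8 libraries was 6.67 for the C4 form, the highest of all 18780 genes tested, and the next gene had 6.19. It was 3.85 for GRMZM2G074122, 2.01 for GRMZM2G473001, 1.31 for the kinase and 0.52 for GRMZM2G069542, against a median of 1.83 over all genes tested. Only 0.341% of genes tested, 64 in all, had an SD as low as that of GRMZM2G069542. Among the 1585 genes above 0 in all 8 libraries it was 3.03%. The C4 form kept the highest SD with a pseudocount of 0.1 or 10 and after rescaling. Its mean FPKM was at least that of 99.99% of genes tested. A gene so high in some libraries and at 0 in others has a large SD with any of these pseudocounts. The place of GRMZM2G069542 moved more, to 29.3% of genes with a pseudocount of 10, where weak genes vary little by construction, and to 1.70% after rescaling. Among the 1585 genes above 0 in all 8 libraries its place after rescaling was 16.4%. The sum of the 4 carboxylases had an SD of 3.31, below those of GRMZM2G074122 and the C4 form.

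**Figure D5:**
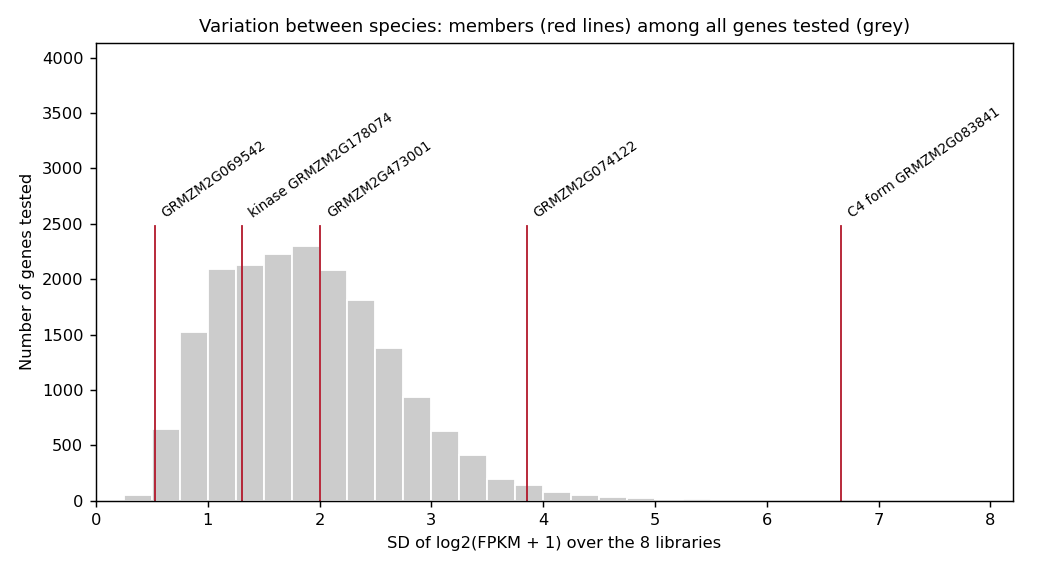
Number of genes tested (grey bars) by their SD of log2(FPKM + 1) over the 8 libraries, with red lines at the 5 members. The C4 form lies at 6.67, at the far end of the distribution, and GRMZM2G069542 at 0.52, near its lower end.

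GRMZM2G069542, GRMZM2G473001 and the kinase were above 0 in all 8 libraries, 3 of 5 members, against 8.44% of all genes tested. Listing goes with level, and of the 3220 genes tested with a mean FPKM at least that of the lowest member 15.0% were above 0 in all libraries. Of the 32 values of the 4 carboxylase genes 4 were at 0, 3 of them of the C4 form and 1 of GRMZM2G074122. At least 3 carboxylase genes were above 0 in each library, including the 3 libraries with the C4 form at 0.

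Correlations between members were computed over the 8 libraries; the values of a library share its total and its extent of listing, so the coefficients are descriptions. They ran from −0.27 to 0.65 over the 10 pairs. Pearson's r on log2(FPKM + 1) was −0.27 between the C4 form and GRMZM2G074122 (Spearman's rho −0.15). It was 0.56 between the C4 form and GRMZM2G473001 (rho 0.49) and 0.13 between the C4 form and GRMZM2G069542 (rho 0.17). GRMZM2G074122 correlated with GRMZM2G069542 at 0.61 (rho 0.69) and with GRMZM2G473001 at 0.40 (rho 0.55), and GRMZM2G069542 with GRMZM2G473001 at 0.11 (rho 0.31). The kinase correlated with GRMZM2G069542 at 0.65 (rho 0.64), with the C4 form at 0.41 (rho 0.41), with GRMZM2G473001 at 0.15 (rho 0.29) and with GRMZM2G074122 at 0.04 (rho 0.05).

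Other enzymes and carriers of the C4 cycle were compared with the C4 form over a list of 13 genes, whose names likewise come from general knowledge. In the comparison of genera 1 of the 13 passed as higher in *Arundinella*, aspartate aminotransferase GRMZM2G094712 (limma adjusted p = 0.0477), against 1.83% of all genes in either direction. Values of 2 of the 13 did not overlap between the groups, against 12.9% of all genes. This call ended on leaving out each of the 7 libraries besides *A. hirta* in turn, at adjusted p from 0.0783 to 0.154. None passed as lower, and none was lower at an unadjusted p under 0.05 (limma). Higher at that unadjusted threshold were aspartate aminotransferase, alanine aminotransferase GRMZM2G088064, the carrier DiT1 GRMZM2G383088 and PEP carboxykinase GRMZM2G001696. Of all genes tested, 29.1% reached it in either direction. The median log2 difference of the 13 was 3.86, against 1.74 for all genes. The list was not matched to all genes by level, and the median of all genes moves with the pseudocount. Of the 13, 11 were fitted higher in *Arundinella*, against 91.4% of all genes. Over the 8 libraries 5 of the 13 (38.5%) had an r above 0.5 with the C4 form, against 42.8% of all genes tested, so the list as a whole did not follow it more closely. An r of at least 0.9 was reached by 2 of the 13, against 2.11% of all genes. These were GRMZM2G097457 (r = 0.98, rho = 0.90) and the decarboxylating NADP-malic enzyme GRMZM2G085019 (r = 0.97, rho = 0.88). GRMZM2G097457 is the list's further gene for pyruvate orthophosphate dikinase, the enzyme that regenerates PEP. The list's main gene for that enzyme, GRMZM2G306345, did not follow the C4 form (r = −0.02, rho = 0.05). Its highest level was 196 FPKM, in *A. nepalensis*. The closest match to GRMZM2G074122 in the list was PEP carboxykinase GRMZM2G001696 (r = 0.71, rho = 0.81), which was between 2494 and 3160 FPKM in *A. hirta*, *A. anomala* and *A. fluviatilis* and at most 1.42 in the other 5. The kinase was closest to the PEP/phosphate translocator GRMZM2G174107 (r = 0.65, rho = 0.72), which had its highest level, 1624 FPKM, in *B. ischaemum*. Carbonic anhydrase 2 GRMZM2G348512 had the lowest coefficient of the 13 with the C4 form (r = −0.41, rho = −0.40). It stood at 748 FPKM in *C. parviflorum* and at most at 17.75 in each other library.

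Over all genes tested, the patterns most like that of the C4 form belonged to GRMZM2G074037 (r = 0.996, rho = 1) and GRMZM2G117680 (r = 0.993, rho = 0.925), which the files do not name. GRMZM2G074037 was at 0 in the same 3 libraries as the C4 form and reached at most 10.9 FPKM, in *A. fluviatilis*. The 2 genes most like GRMZM2G074122 were GRMZM2G445634 (r = 0.980), which stood at 130 FPKM in *A. hirta* and 4.89 in *I. cylindrica*, and GRMZM2G418160 (r = 0.957). For GRMZM2G473001 they were GRMZM2G014526 and GRMZM2G168269 (r = 0.986 each), both highest in *A. pubescens* and at 0 in the other genera. For the kinase they were GRMZM2G174619 (r = 0.98) and GRMZM2G108085 (r = 0.96), and for GRMZM2G069542 GRMZM2G353276 (r = 0.988) and GRMZM2G163877 (r = 0.978). The last gene was between 0 and 76.95 FPKM, a wider range than that of GRMZM2G069542, since r compares shape and not size. With 8 libraries and 18780 genes, high coefficients are frequent: an r of at least 0.9 was reached by 396 genes for the C4 form, 246 for GRMZM2G473001, 57 for GRMZM2G069542, 27 for GRMZM2G074122 and 24 for the kinase.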

How the data were processed

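RNA from leaves of 8 grass species was sequenced with TruSeq libraries per the labels' protocols, 1 library per species. The authors deposited 1 table of FPKM values, made with RSEM per the submitters' processing notes; versions, aligner and settings: not given in the sources used here. Depth per library is unknown.

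Protein model rows were summed per gene (7292 of 26274 genes had several). Shares, ranks and ratios were computed from those sums. Genes reaching 1 FPKM in 3 or more libraries were tested with limma 3.58.1 in R 4.3.3 (lmFit, eBayes with trend, two-sided) on log2(FPKM + 1), *Arundinella* against other genera, with Benjamini-Hochberg adjustment at 0.05 over 18780 genes. The step was tested on simulated data. Python 3.11.15, pandas 2.3.3, numpy 2.4.6 and matplotlib 3.10.9 were used for the rest. Alternatives were other pseudocounts (0.1 and 10), no filter, rescaling to equal totals, quantile normalization, the highest protein model, no trend, each library left out and, chosen after seeing the data, protein models tested separately. Named were all members and the 2 genes most like each by Pearson's r. Of 13 C4 cycle genes, those closest to or farthest from the members were named, and those passing the test or with an unadjusted p under 0.05. The list's main pyruvate orthophosphate dikinase gene was named too. The members and lists were chosen with earlier results of these data known. Replicate numbers follow accession order and pair nothing. No libraries held identical values.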

Additional observations from a re-analysis of the deposited data

Results flagged for a closer look

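Among the 5 *Arundinella* libraries, single libraries stood far from the rest for GRMZM2G074122, at 4926.82 FPKM in *A. hirta*, and for GRMZM2G473001, at 765.39 FPKM in *A. pubescens*. The gap from the highest library to the next took 76.8% and 86.2% of the range over the 5 libraries, above Dixon's 95% critical value of 71%. In all, 13 quantities were examined at both ends: the genes and the family sum on the FPKM and log2 scales, and the C4 share. On the FPKM scale others fell just short: the kinase in *A. anomala* (70.4%) and, in *A. fluviatilis*, the C4 form (70.2%) and the family sum (68.1%). The highest library of GRMZM2G069542 was at 32.0%. Chance alone marks about 1 in 20 groups only where values are normally distributed, which was not checked for FPKM. On the log2(FPKM + 1) scale neither *A. hirta* nor *A. pubescens* stood apart by this measure, at 31.5% for GRMZM2G074122 and 60.1% for GRMZM2G473001.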

How the results depend on the processing

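No paired analysis was possible because replicate numbers only follow accession order. The log2 difference of the C4 form stayed positive and short of the threshold in all 16 alternatives; leaving out 1 library gave 1.65 to 8.41. GRMZM2G074122 (4.31 to 6.48) and GRMZM2G473001 (2.52 to 3.50; 1.97 after rescaling and 1.495 under quantile normalization) stayed positive too, and both passed only without *A. hirta*, at 4.69 and 3.50 (limma adjusted p 0.0467 and 0.0450, against up to 0.304 and 0.672 in other alternatives). GRMZM2G069542 (0.28 to 0.64) turned to −0.79 after rescaling and −1.18 under quantile normalization. The kinase (−0.55 to 0.93) turned to −1.02 and −1.73 there, to −0.33 without *A. anomala* and to −0.55 without *C. parviflorum*. The number of genes passing was 343; it was 799 and 0 with pseudocounts of 0.1 and 10, 20 under quantile normalization, 621 without trend and 1 to 5847 with 1 library left out. With a pseudocount of 10 no gene passed, so that alternative says nothing about single genes. The cause of these changes was not tested. The C4 share without GRMZM2G074122 was 90.3% in *A. anomala* and 7.30% in *A. nepalensis*, against 61.6% and 2.65% with it; shares differ so much between libraries that their spread is no measure of stability. Unknown depth limits what a listing at 0 can show.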
